A study of Danio rerio with 6 samples.

Results

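Autophagy and membrane traffic genes were followed through the open chromatin of adult zebrafish blood. The starting point was the annotated list of ATAC-seq peaks that the authors scored as larger in fish raised from cortisol-treated embryos than in controls. Of its 9546 rows, 144 carried a gene name beginning with one of the chosen stems, and these rows belonged to 101 of the 6295 genes named in the list. The stems atg, ulk, gabarap, map1lc3 and bnip3 gave 34 autophagy rows at 22 genes. The stems rab with a digit, vps, snx and chmp gave 110 membrane traffic rows at 79 genes. A row is a stretch of the genome, and its gene is that with the nearest transcription start site (TSS), so a row may lie in or beside another gene.

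Autophagy wraps cytoplasm, damaged organelles or mitochondria in a double membrane, the autophagosome, and delivers them to the lysosome. A kinase complex starts the process, vesicles bring membrane, and conjugation enzymes attach small ubiquitin-like proteins of the Atg8 family to the growing membrane, where receptors on the cargo bind them. Membrane traffic supplies the same routes: Rab GTPases mark each compartment, tethering complexes join vesicles to their targets, sorting nexins and the retromer recycle cargo from endosomes, and the ESCRT machinery cuts membranes. In the red cell lineage of mammals, the autophagy receptor BNIP3L is known for its part in clearing mitochondria from maturing cells. Zebrafish red cells differ in that they keep their nucleus, and the chromatin of circulating blood can therefore be assayed.

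The assay, ATAC-seq, inserts sequencing adapters into accessible DNA with a transposase. The 3 cortisol-treated libraries came from adults kept in 1 µM cortisol for the first 5 days of life, and the 3 DMSO-control libraries from siblings kept in the vehicle, dimethyl sulfoxide. Both groups then grew up under normal conditions with no further treatment and were of the AB strain, 12, 11 and 10 months old for replicates 1, 2 and 3 of each group. The study's methods describe blood pooled from several fish of both sexes for each library, whereas the deposited design text speaks of individual adults, so what a replicate holds was not settled. Blood mixes cell types, and a difference in their shares cannot be told apart from a change of chromatin within a type.

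The libraries were not alike. Cortisol-treated replicates 1, 2 and 3 had 49583, 56695 and 26905 deposited peaks, and DMSO-control replicates 1, 2 and 3 had 138146, 63072 and 29401. Read counts were not at hand, and the depth is known only through the background recovered from the steps between peak scores. In piled-up reads it came to 5.73, 6.55 and 1.99 for the cortisol-treated replicates, against 9.08, 9.05 and 3.38 for the DMSO-control replicates. The names of the peaks carry the digit 0 in cortisol-treated replicate 1 and DMSO-control replicates 2 and 3, and the digit 1 in the other libraries. The names in both pooled peak lists and in the scored list begin with the word Flipped. What the digit and the word stand for is not given in the sources used here, and whether the labels of replicate 1 were exchanged at some step cannot be told. If they are wrong, every difference between the groups given here, and the scores behind the list, would mean something else. Libraries were grouped by their titles alone. The pooled lists followed the same grouping: the pooled cortisol-treated list had a background of 14.26, against a sum of 14.26 over the 3 libraries with that title and of 17.62 with replicate 1 exchanged. The percentile counts of the sets, families and gene lists are given below with and without both libraries of replicate 1, a choice made after seeing the data.

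Cell type markers were looked up in the same list. It holds only rows scored larger in cortisol-treated fish, so their numbers cannot show which cells were present. Of 20 erythroid marker genes, 12 had rows, 42 rows in all. The promoter of slc4a1a, the anion exchanger of the red cell membrane, lay at percentiles 97.9, 97.0 and 97.9 in cortisol-treated libraries and at 96.2, 95.2 and 97.7 in DMSO-control libraries. Myeloid markers had 4 rows at 3 of 16 genes, lymphoid markers 3 rows at 2 of 15 and thrombocyte markers 4 rows at 3 of 9. The erythroid rows were higher in the mean of the cortisol-treated libraries at 38 of 42, by a median of 4.90 percentile points and a median centred log2 height of 0.35, against 3.06 points and 0.18 for the 144 autophagy and traffic rows. All 3 cortisol-treated libraries lay above all 3 controls at 4 erythroid rows (9.52%), 1 myeloid row, no lymphoid row and 1 thrombocyte row, against 9.54% of all rows in the list. Without replicate 1 these counts were 16 (38.1%), 2, 1 and 1, against 29.5% of the list. By centred height the groups were separated in this way at 9 of 38 erythroid rows (23.7%), 1 myeloid row, no lymphoid row and 1 thrombocyte row. The list's share on that scale was 10.1% of its rows with a peak in all 6 libraries. The part of cell composition in the values below was not tested.

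The list itself was made by comparing pooled cortisol-treated with pooled control reads, so every row in it had already been chosen as larger in cortisol-treated fish. Differences between the groups at these rows are therefore given as descriptions, without a test. The unit used is the percentile of a row's peak score within one library, taken among the 13835 regions where every library had a peak, with 0 standing for no peak. A second scale is the summit height, the number of reads piled up at the peak, recovered from the scores and given either as it stands or as a log2 difference after centring each library on the median of those regions.

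The autophagy rows had higher median percentiles than the list, though not in every family. In cortisol-treated replicates 1, 2 and 3 they had a median percentile of 76.1, 74.7 and 77.9, against 68.9, 75.6 and 76.9 in DMSO-control replicates 1, 2 and 3. Over all rows of the list the medians were 62.5, 65.9 and 66.7 in cortisol-treated libraries and 58.9, 61.2 and 65.7 in controls. Membrane traffic rows were lower than either, at 56.4, 61.5 and 62.1 in cortisol-treated libraries and 55.0, 54.7 and 60.3 in controls. The order of the 3 sets was the same in each of the 6 libraries, the autophagy rows on top and the traffic rows at the bottom. The autophagy families differed in level. The 19 atg rows had a median of the mean percentiles of 69.2 in cortisol-treated libraries and 59.8 in controls, against 64.4 and 60.8 for the list. The 8 bnip3 rows stood at 86.3 and 82.0, the 2 ulk rows at 84.4 and 85.1 and the 5 gabarap and map1lc3 rows at 72.2 and 65.7.

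Every member row had a peak in each cortisol-treated library, and 136 of the 144 had one in all 6, beside 8887 of the list's 9546 rows. Missing were 6 rows in DMSO-control replicate 1, 3 in replicate 2 and 1 in replicate 3. Over the list, 470, 396 and 57 rows were missing in DMSO-control replicates 1, 2 and 3. In cortisol-treated replicates 1, 2 and 3 the list lacked 59, 4 and 19. The 8 member rows concerned were those of map1lc3a, rab3gap1, vps33b, vps26b and snx9b, and 1 row each of rab22a, rab2a and rab40b. A peak list holds only peaks past the caller's threshold, so an unlisted row is not a closed one.

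The mean percentile was higher in cortisol-treated than in DMSO-control libraries at 27 of 34 autophagy rows and at 88 of 110 traffic rows, against 79.0% of all rows in the list. The median difference was 2.55 percentile points for autophagy, 3.25 for traffic and 3.24 for the whole list. On the centred height scale the medians were 0.25, 0.15 and 0.18 (log2). The members thus moved about as far as the list from which they were taken. The direction depended on the reference: ranked among all peaks of each library's own list, whose lengths differ, the median difference was -0.12 for autophagy, -1.61 for traffic and -0.87 for the list. On that reference 1 autophagy and 2 traffic rows had all cortisol-treated libraries above all controls, against 2.18% of the list.

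A stricter count took the rows where all 3 cortisol-treated libraries lay above all 3 controls. There were 6 such autophagy rows (17.6%) and 8 such traffic rows (7.27%), beside 9.54% of all rows in the list and 5.88% of the 13835 regions. Of these, 3 autophagy rows were assigned to bnip3lb, and 1 traffic row, at rab22a, rested on the extent of a listed peak. With 1 row per gene the counts were 3 and 5, beside 8.66% of the list. All 3 cortisol-treated libraries lay below all 3 controls at 2 member rows, both of the snx family, beside 0.775% of the list and 2.9% of the regions. By centred height, 6 autophagy and 5 traffic rows were apart upwards, beside 10.1% of the list's rows with a peak in all 6 libraries, and without replicate 1 the counts were 10 and 27, beside 26.4%. Of the 14 member rows apart upwards in percentile, 9 were also apart by centred height. Within same-numbered pairs, the cortisol-treated library was above its control in all 3 pairs at 15 autophagy and 37 traffic rows, 44.1% and 33.6%, against 32.4% of the list.

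Without both libraries of replicate 1, both remaining cortisol-treated libraries lay above both controls at 12 autophagy and 32 traffic rows, against 29.5% of the list. They lay below at 3 and 5 rows, against 5.46% of the list. Leaving out DMSO-control replicate 3 alone gave 15 and 33 rows above, against 34.3% of the list, and leaving out cortisol-treated replicate 1 gave 10 and 28, against 24.6%. With fewer libraries full separation comes more easily, so each count is read only against the list's share under the same omission. The 14 rows apart upwards stay so without replicate 1 by construction. Their mean differences then ran from 0.48 to 62.8 points, and were over 1.5 times smaller at 3 rows: the bnip3lb row at 10860 bp (1.68 without replicate 1, 4.67 with it), the rab14 row at 30718 bp (7.08 and 12.4) and the first-intron row of rab1ba (11.2 and 17.1).

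**Figure D1:**
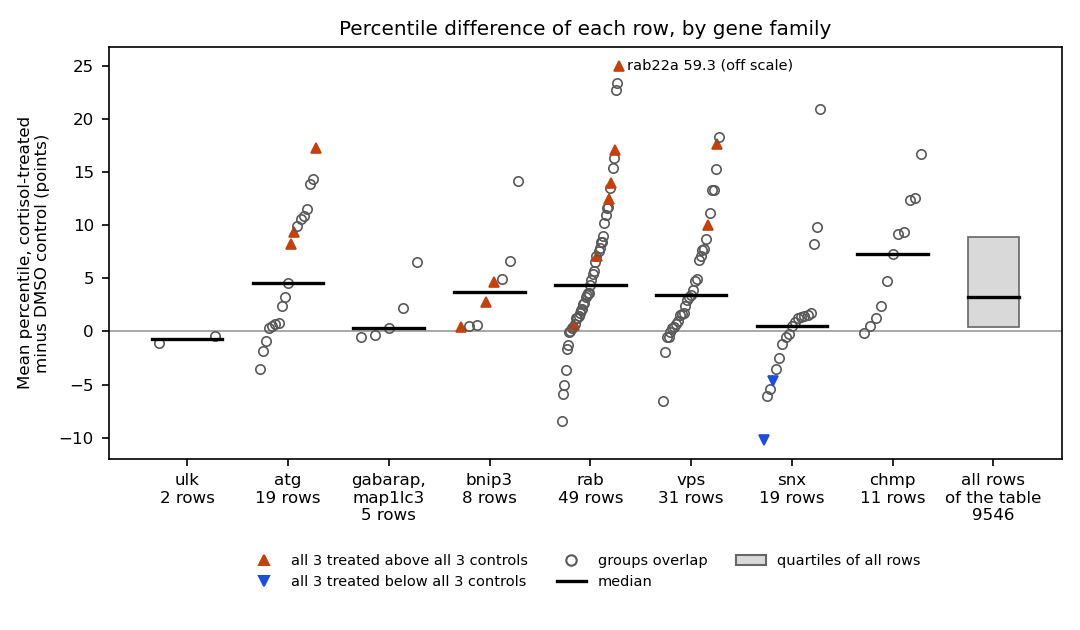
Difference in mean percentile, cortisol-treated minus DMSO control, of each member row (points) by gene family, with the family's median (black line) and, at the right, the quartiles (box) and median of all 9546 rows. Filled upward triangles mark rows where all 3 treated libraries lay above all 3 controls, filled downward triangles the 2 snx rows where they lay below, and 1 rab22a row at 59.3 is drawn at the top as off scale.

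The kinase complex that starts autophagy was represented by ulk1a and ulk3, kinases, and by atg13 and atg101, partners of the kinase. Neither ulk row was higher in mean percentile in the cortisol-treated group. The ulk1a row, intergenic at 48321 bp from the TSS, lay at 75.05, 83.5 and 81.0 in cortisol-treated libraries and at 80.4, 80.2 and 82.3 in controls. The ulk3 row, in an intron, lay at 89.9, 89.3 and 87.6 against 88.7, 89.8 and 89.5 in controls. Both pairs of ranges overlapped, and the differences of -1.09 and -0.40 points had the opposite sign to the list. By centred height the sign was the list's, with log2 differences of 0.08 and 0.13.

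The promoter row of atg101 had the largest percentile difference of any autophagy row. It covers 32716723 to 32717105 of chromosome 10 (GRCz10), centred 58 bp upstream of the TSS, and lay at 47.2, 43.9 and 48.6 in cortisol-treated libraries against 26.0, 22.4 and 39.3 in controls. The 3 cortisol-treated values sat close together above all 3 controls, by 17.3 points in the mean. Its summit was 76, 107 and 59 reads high in cortisol-treated libraries and 45, 42 and 61 in controls, a centred log2 difference of 0.38. A second atg101 row, in the first exon, shared its peak with the promoter row in cortisol-treated replicates 2 and 3 and DMSO-control replicates 1 and 3, and is not a separate measurement there. The third, intergenic at 14296 bp, was far taller and flat, at 87.0, 86.3 and 85.1 in cortisol-treated libraries and 88.0, 86.0 and 87.2 in controls.

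For atg13, an intergenic row at 15177 bp from the TSS (chromosome 7, 38521207 to 38521571) lay at 66.2, 72.1 and 64.9 in cortisol-treated libraries and at 61.0, 58.1 and 59.4 in controls, with no overlap. Its promoter row did overlap, at 42.5, 34.1 and 52.4 in cortisol-treated libraries against 29.0, 35.1 and 35.01 in controls. Of the kinase complex, then, the atg101 promoter and the distal atg13 row were apart and the ulk rows were not. Over all rows with the stem atg, 3 of 19 (15.8%) were apart upwards in percentile, against 9.54% of the list. Without replicate 1 the atg rows apart upwards numbered 9 (47.4%), against 29.5%. No ulk row was then apart upwards and 1 was downwards, against 5.46% of the list downwards.

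Atg9 proteins are the membrane-spanning members of the pathway, carried on the vesicles that feed the autophagosome. The promoter rows of atg9a and atg9b went in opposite directions in the mean. The atg9a promoter lay at 79.7, 72.3 and 81.1 in cortisol-treated libraries and 83.8, 69.2 and 85.6 in controls, a difference of -1.80 points. The row assigned to atg9b lay at 36.7, 42.4 and 54.3 against 19.5, 27.2 and 45.1 in controls, a difference of 13.9 points. In both, the groups overlapped, and the atg9b row is annotated as the promoter of another transcript that RefSeq assigns to abcb8, a mitochondrial transporter. A further atg9a row, intergenic at 19800 bp, lay at 40.3, 43.4 and 47.0 in cortisol-treated libraries and 51.5, 40.5 and 29.1 in controls, where the controls spread more widely than the cortisol-treated libraries.

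The conjugation enzymes join Atg12 to Atg5 and Atg8 proteins to lipid. The row at the promoter of atg5, whose protein is the acceptor of Atg12, covers 7462919 to 7463256 of chromosome 16, 30 bp upstream of the TSS. It lay at 70.4, 67.0 and 70.0 in cortisol-treated libraries and at 65.3, 54.3 and 59.9 in controls, apart by 9.34 points in the mean. Its summits were 134, 177 and 99 reads high in cortisol-treated libraries and 88, 67 and 96 in controls, a centred log2 difference of 0.38.

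The other conjugation rows overlapped between the groups. For atg12 itself the row in the first intron lay at 85.6, 81.5 and 85.1 in cortisol-treated libraries and 77.3, 83.5 and 84.1 in controls. For atg10, the enzyme that carries Atg12 to Atg5, the promoter row lay at 80.0, 83.5 and 83.1 against 84.6, 76.9 and 71.3 in controls. A second atg10 row, 8012 bp upstream of the TSS, was among the tallest of the set, with summits of 484, 692 and 357 reads in cortisol-treated libraries and 308, 285 and 396 in controls. Its percentiles of 96.2, 97.4 and 96.7 overlapped the controls' 95.6, 96.6 and 95.7, while its centred heights did not overlap (log2 difference 0.29).

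For atg3, which attaches Atg8 proteins to lipid, the row at the TSS lay at 48.3, 57.4 and 62.9 in cortisol-treated libraries and 46.3, 30.5 and 59.4 in controls, higher in all 3 same-numbered pairs though the groups overlapped. Its second promoter row, 777 bp upstream, lay at 37.4, 38.9 and 39.7 against 5.45, 37.9 and 40.9 in controls, so its difference came from DMSO-control replicate 1 alone. The same control stood low at atg16l1, which brings the conjugation complex to the membrane, with 40.3, 49.5 and 58.7 in cortisol-treated libraries and 12.9, 36.5 and 64.6 in controls.

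The Atg4 proteases trim Atg8 proteins and release them again. The promoter of atg4a was nearly as tall as the atg10 distal row, at 94.998, 97.69 and 97.50 in cortisol-treated libraries and 94.90, 95.83 and 97.40 in controls. An intergenic atg4a row at 41997 bp lay at 95.6, 96.1 and 96.3 against 96.0, 95.4 and 95.1 in controls, and the atg4b promoter at 88.2, 88.8 and 92.5 against 85.9, 91.8 and 90.9 in controls. All 3 rows overlapped within a few points. The atg4c row, intergenic and 11232 bp upstream, had the most negative difference of the autophagy set, -3.52 points, at 82.9, 65.2 and 74.9 in cortisol-treated libraries and 76.1, 78.7 and 78.8 in controls. Its centred log2 height difference was 0.00, and the percentile difference came from the low cortisol-treated replicate 2.

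The Atg8 proteins themselves, the markers of the autophagosome, gave 5 rows at 5 genes, and the groups overlapped in percentile at each. Over the list 9.54% of rows were apart upwards and 0.775% downwards, so 5 overlapping rows set the family little apart from it. Without replicate 1 no Atg8 row was apart upwards and 1 was downwards, against 29.5% and 5.46% of the list. The tallest was an intergenic row 1659 bp upstream of map1lc3c, at 92.1, 92.6 and 91.4 in cortisol-treated libraries and 87.7, 91.4 and 90.4 in controls. By centred height its groups were apart, with a log2 difference of 0.36. The map1lc3b promoter lay at 70.2, 70.4 and 75.9 against 69.6, 53.4 and 74.0 in controls, where DMSO-control replicate 2 stood low. The gabarapa row in the 5′ UTR lay at 68.4, 78.5 and 81.5 against 68.2, 82.1 and 79.2 in controls, and the gabarapl2 promoter at 18.5, 43.4 and 47.0 against 17.7, 45.2 and 45.1 in controls. At both gabarap rows the libraries followed their replicate number more closely than their group.

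The map1lc3a promoter was the lowest-scored member. Its score in the authors' comparison, the log10 of a likelihood ratio, was 11.4, against 10.4 for the lowest row of the list, so it stood just inside the limit, and rows under that limit were not listed. It lay at 20.7, 23.4 and 14.5 in cortisol-treated libraries and at 0, 36.5 and 23.6 in controls, with no peak in DMSO-control replicate 1. The next lowest scores were 11.6 for the vps37c promoter and 12.3 for the vps26bl promoter. At vps37c the groups overlapped throughout, with 15.3, 33.1 and 47.8 in cortisol-treated libraries and 12.9, 36.5 and 48.3 in controls.

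**Figure D2:**
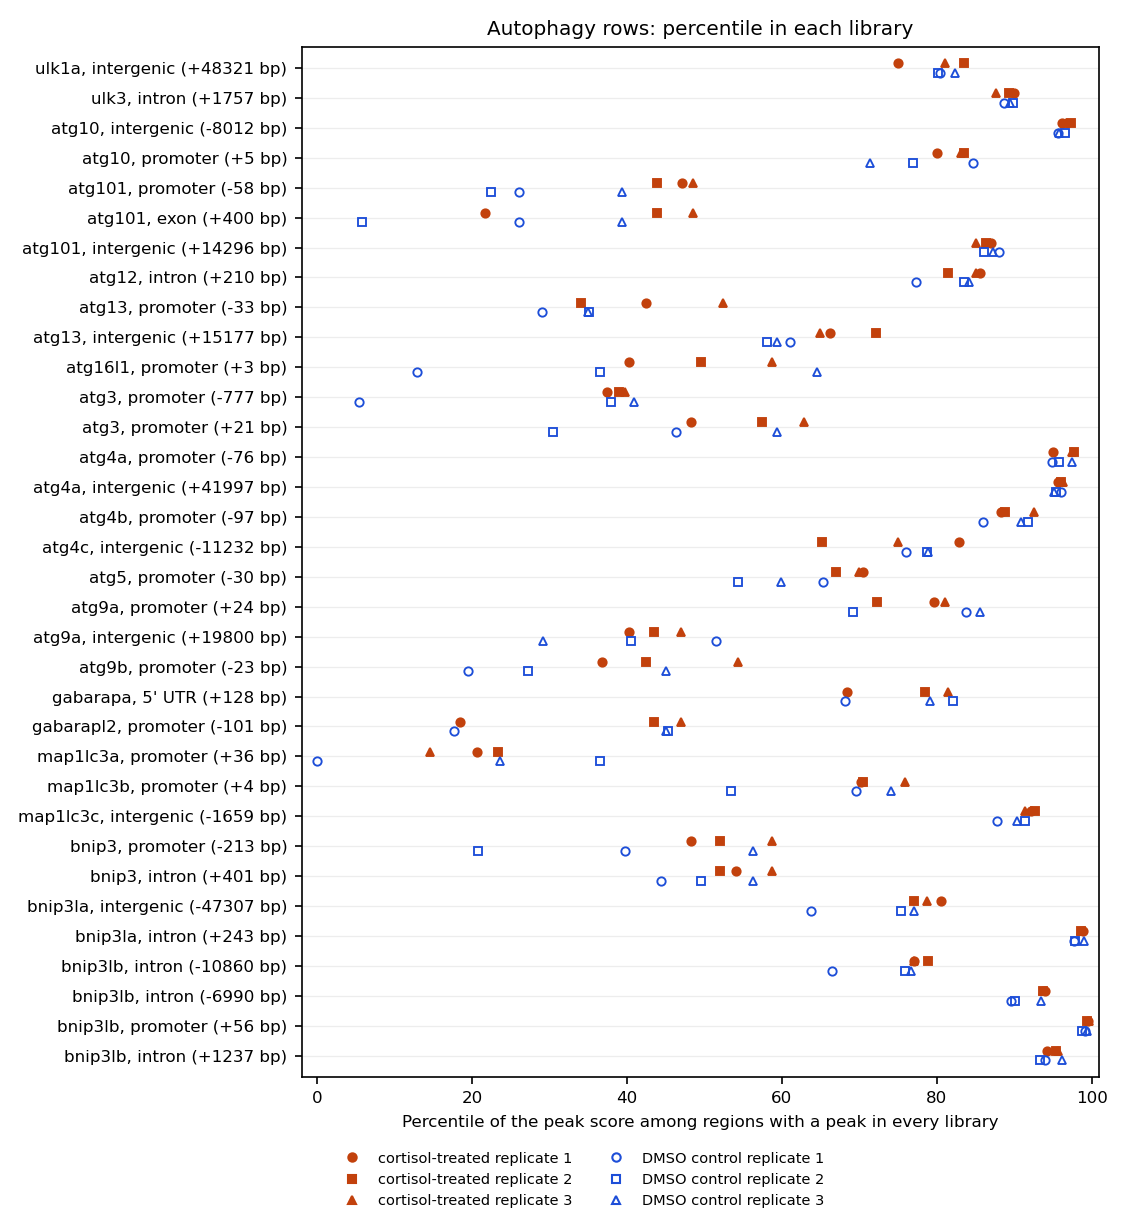
Percentile of each of the 34 autophagy rows (one line each, with annotation and distance from the TSS) in the 3 cortisol-treated libraries (filled) and the 3 DMSO-control libraries (open), with the replicate given by the shape. The bnip3lb promoter and the first intron of bnip3la lie at the top of the scale, while the atg101 promoter, at 47.2, 43.9 and 48.6 in treated libraries against 26.0, 22.4 and 39.3 in controls, shows the widest gap between groups that do not overlap.

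The bnip3 genes encode receptors on the mitochondrial surface that bind Atg8 proteins, and bnip3la and bnip3lb are the zebrafish counterparts of mammalian BNIP3L. They gave 8 rows, at all of which the cortisol-treated libraries had the higher mean percentile, against 79.0% of the list. The groups did not overlap in percentile at 3 of them (37.5%), all assigned to bnip3lb, against 9.54% of the list upwards. By centred height they did not at 1 (12.5%), against 10.1% of the list's rows with a peak in all 6 libraries. Without replicate 1 the counts were again 3 and 1, while the list's shares were 29.5% and 26.4%. The family's median centred log2 height difference was 0.30, against 0.18 for the list, and its median authors' score 55.5, against 25.7 for the list.

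The bnip3lb promoter row was the tallest autophagy peak and the longest row of all members, 909 bp from 18953342 to 18954250 of chromosome 10, 56 bp downstream of the TSS at its centre. It lay at 99.55, 99.40 and 99.60 in cortisol-treated libraries and at 99.14, 98.70 and 99.35 in controls, where little room is left at the top of the scale. In summit height it reached 1132, 1113 and 654 reads in cortisol-treated libraries and 660, 437 and 731 in controls, a centred fold of 1.27, and by centred height the groups overlapped. In raw height, which is not corrected for depth, cortisol-treated replicate 3 was lower than DMSO-control replicate 3 at every bnip3 row.

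The 2 bnip3lb rows upstream were apart in percentile as well, but by centred height only the more distant one was. That at 6990 bp (18946529 to 18946972) lay at 93.9, 93.7 and 93.7 in cortisol-treated libraries and at 89.6, 90.1 and 93.5 in controls, with a centred log2 height difference of 0.43, the third largest of the members after an intergenic rab11a row (0.54) and rab3gap2 (0.44). That at 10860 bp (18942691 to 18943069) lay at 77.1, 78.8 and 77.0 against 66.4, 75.8 and 76.6 in controls. In both, DMSO-control replicate 3 came within 1 point of the lowest cortisol-treated library. Both are annotated as introns of another transcript, so their assignment to bnip3lb rests on distance alone. The last bnip3lb row, in its own first intron, overlapped at 94.3, 95.4 and 95.6 in cortisol-treated libraries and 94.0, 93.3 and 96.2 in controls.

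For bnip3la the row in the first intron was nearly as tall, with percentiles of 98.9, 98.6 and 98.7 in cortisol-treated libraries and 97.8, 97.8 and 99.0 in controls. An intergenic row 47307 bp upstream lay at 80.5, 77.1 and 78.8 against 63.8, 75.4 and 77.1 in controls, overlapping by little. The bnip3 promoter lay lower, at 48.3, 52.0 and 58.7 against 39.7, 20.7 and 56.2 in controls, higher in all 3 pairs. The bnip3 intron row shared its peak with the promoter row in cortisol-treated replicates 2 and 3 and in DMSO-control replicate 3.

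**Figure D3:**
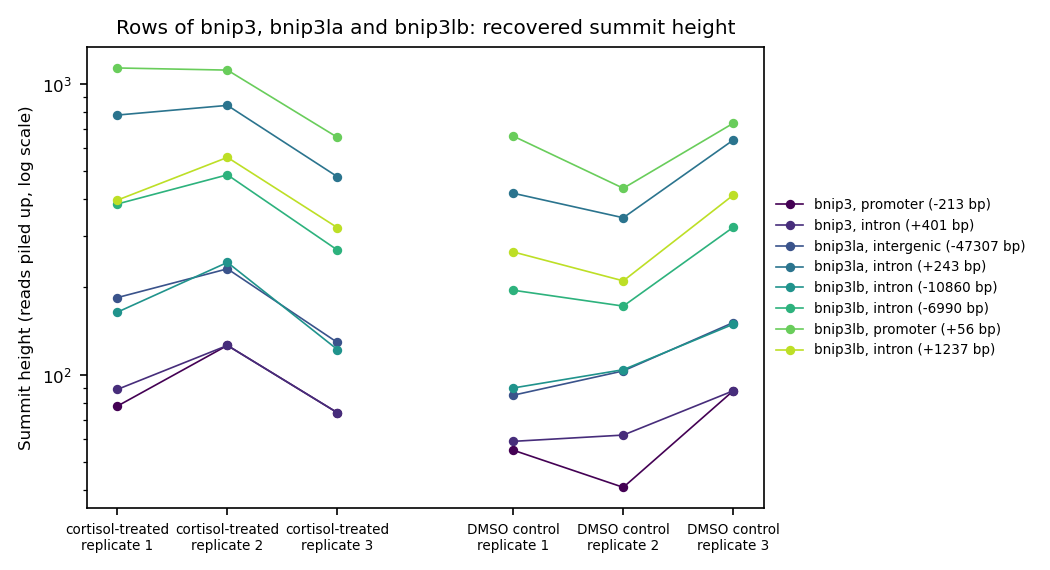
Recovered summit height in piled-up reads (log axis) of the 8 rows of bnip3, bnip3la and bnip3lb in cortisol-treated replicates (left) and DMSO-control replicates (right), uncorrected for depth. The bnip3lb promoter, on top at 1132, 1113 and 654 reads in treated libraries and 660, 437 and 731 in controls, and the other rows keep nearly the same order in every library.

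Other autophagy genes were taken from a list of 70 that the stems do not reach. Of these, 36 had rows, 62 in all, and all 3 cortisol-treated libraries lay above all 3 controls at 8 rows (12.9%, against 9.54% of all rows in the list) and below at none. Without replicate 1 the rows above numbered 22 (35.5%, against 29.5%). By centred height 10 of 59 rows (16.9%) were apart upwards, against 10.1% of the list's rows with a peak in all 6 libraries. The median percentile difference of the 62 rows was 3.07 points. The tallest of the 8 was an intron row of nprl3, a subunit of a complex that restrains mTORC1, at 95.7, 96.2 and 96.0 in cortisol-treated libraries and 92.6, 85.8 and 94.98 in controls. In zebrafish as in mammals nprl3 neighbours an alpha-globin cluster, so the row cannot be tied to nprl3 by position alone. The promoter of sqstm1, the cargo receptor p62, lay at 93.2, 95.4 and 95.7 against 93.0, 92.6 and 91.6 in controls. The promoter of pink1, the kinase that marks damaged mitochondria, lay at 52.1, 46.4 and 61.4 against 42.1, 42.9 and 40.9 in controls.

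The Rab family gave 49 rows at 35 genes, the most of any family. Its median difference was 4.36 points, and 6 rows (12.2%) were apart upwards in percentile, against 9.54% of the list. By centred height 4 were (8.89%), against 10.1% of the list's rows with a peak in all 6 libraries. On that scale rab10 overlapped, and 1 rab22a row had no peak in the controls. Without replicate 1, 15 rows (30.6%) were apart in percentile, against 29.5% of the list. Rab proteins switch between a form bound to GTP, which recruits effectors, and an idle form bound to GDP. The stem also took in regulators and partners that are not Rab proteins: rab3gap1 and rab3gap2 are the subunits of a complex that acts on Rab3 and Rab18, rab3ip activates Rab8, and rab11fip3 is an effector of Rab11.

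The tallest Rab peaks were the promoters of rab40b, rab1ab, rab8a and rab10. Rab40b, which belongs to a branch that joins ubiquitin ligases, had summits of 1071, 1199 and 683 reads in cortisol-treated libraries and 616, 466 and 858 in controls (chromosome 12, 31951354 to 31951963). Its authors' score of 163.6 was the 16th of the list and the highest of the members. Its percentiles were 99.50, 99.50 and 99.65 in cortisol-treated libraries against 99.06, 98.87 and 99.63 in controls, overlapping, and its centred height fold was 1.23. A second rab40b row, listed in the 3′ UTR of a transcript of the neighbouring cox11, was among the weakest, at 24.5, 18.3 and 10.8 against 0.05, 0 and 18.9 in controls.

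Rab1, which serves the step between endoplasmic reticulum and Golgi, gave a tall promoter row for rab1ab (chromosome 13, 24271598 to 24272202) and 3 low rows for rab1ba. The rab1ab row lay at 98.8, 99.3 and 99.4 in cortisol-treated libraries and 98.0, 98.2 and 99.3 in controls. Its summits were 767, 1068 and 603 reads high in cortisol-treated libraries against 438, 389 and 715 in controls. The first-intron row of rab1ba (chromosome 7, 17849093 to 17849447) lay at 34.2, 34.1 and 33.9 in cortisol-treated libraries and at 5.45, 17.5 and 28.1 in controls. The cortisol-treated values all but coincided and the controls spread widely below them, with a mean difference of 17.1 points. The 2 intergenic rab1ba rows, 67600 and 75301 bp away, lay at means of 59.7 and 33.8 in cortisol-treated libraries and 54.9 and 26.2 in controls, with overlap.

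Rab8 and Rab10 act on the way to the cell surface. The rab10 promoter (chromosome 20, 47576885 to 47577444) was apart on the percentile scale, at 98.26, 98.11 and 98.15 in cortisol-treated libraries and 97.51, 97.28 and 97.98 in controls, but not by centred height (log2 difference 0.27). The rab8a promoter lay at 97.8, 98.5 and 98.7 against 97.4, 98.0 and 98.3 in controls, overlapping, and a row 104713 bp away at 92.8, 90.5 and 92.8 against 89.2, 89.9 and 92.6 in controls. Near the top of the scale a difference under 1 point thus separated the groups at rab10 and not at rab8a.

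The promoter of rab3gap2 (chromosome 17, 25612209 to 25612642) lay at 65.8, 60.7 and 65.9 in cortisol-treated libraries and at 52.4, 40.5 and 57.6 in controls. It was apart by 14.0 points, with summits of 118, 152 and 88 reads in cortisol-treated libraries and 68, 54 and 91 in controls, a centred fold of 1.36. Its partner rab3gap1 had a weak promoter row, at 16.3, 25.9 and 30.2 against 0, 25.7 and 19.8 in controls. Both subunits were higher in percentile in all 3 pairs, and only rab3gap2 was apart. At rab3gap1 the pair of replicate 1 rested on a control without a listed peak. Its centred log2 height difference, over the libraries with a peak, was -0.07.

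Of 3 rab14 rows, which belong to a Rab of the recycling and Golgi routes, the intergenic row 30718 bp upstream was apart, at 52.1, 47.3 and 45.5 in cortisol-treated libraries against 29.0, 33.6 and 45.1 in controls. The second, 14978 bp upstream, went the other way in the mean, at 44.6, 54.2 and 41.5 against 57.4, 48.5 and 49.5 in controls. The promoter row was flat at 81.2, 83.5 and 74.3 against 82.0, 73.3 and 84.0 in controls. Rows of 1 gene did not move together here.

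The largest percentile gap of all members was at rab22a, a Rab of early endosomes, and it rested on the extent of 1 listed peak. The row in its first intron (chromosome 6, 49553327 to 49553633) had no peak in any control and lay at 52.1, 63.8 and 61.9 in cortisol-treated libraries, a difference of 59.3 points. The promoter row of the same gene, a short way upstream, had the very same values in the cortisol-treated libraries, because 1 listed peak covered both rows, and it lay at 63.8, 58.1 and 59.9 in controls. In the controls the peak stopped short of the intron row. The promoter itself thus differed by -1.31 points.

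The genes rab7, rab5c, rab3da, rab3gap1, vps18, vps29, vps35, vps39, vps25, vps72, snx9b and chmp7, as well as rab11a, were picked for naming after their values had been seen. Among the remaining Rab rows, the 5′ UTR row of rab12, a Rab linked to endosomes and lysosomes, was apart at 45.3, 48.2 and 53.7 in cortisol-treated libraries and 39.7, 41.7 and 44.4 in controls. Rab2a, which acts at the Golgi and in fusion with lysosomes, had 3 rows that overlapped, with mean differences of -5.85, 2.63 and 23.4 points from the intron row to the most distant one at 105358 bp. Rab7, the late endosome Rab that autophagosomes need to fuse, had 1 promoter row with 52.1, 51.6 and 56.2 against 39.7, 56.5 and 59.9 in controls. Rab5c, an early endosome Rab, had a promoter row below its control in all 3 pairs, at 49.95, 58.4 and 56.9 against 59.7, 58.9 and 57.6 in controls. The lowest difference of the family, -8.42 points, was at the promoter of rab3da, a Rab of secretory granules.

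The vps stem, for vacuolar protein sorting as found in yeast, joins proteins of several complexes and gave 31 rows at 20 genes. Its median difference was 3.46 points, and 2 rows (6.45%) were apart, the promoters of vps16 and vps26b, against 9.54% of the list. By centred height only vps16 was (3.45%), vps26b having no height in 1 control, against 10.1% of the list's rows with a peak in all 6 libraries. Without replicate 1, 9 rows (29.0%) were apart upwards in percentile, against 29.5% of the list. Vps16 is a core subunit of the HOPS complex, which tethers autophagosomes and late endosomes to lysosomes. Its row (chromosome 6, 8871316 to 8871635) lay at 51.1, 56.7 and 53.1 in cortisol-treated libraries and at 34.8, 45.2 and 50.8 in controls. The promoters of vps18 and vps39, also of HOPS, overlapped, at 34.2, 49.5 and 55.6 against 15.98, 52.4 and 56.2 in controls for vps18 and 49.4, 57.1 and 58.7 against 24.5, 41.7 and 53.2 in controls for vps39.

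Vps26b is a subunit of the retromer, which returns receptors from endosomes. Its promoter row (chromosome 15, 19388780 to 19389135) lay at 35.1, 29.2 and 28.0 in cortisol-treated libraries and at 19.5, 0 and 19.8 in controls, where DMSO-control replicate 2 had no listed peak. Summits there were low, 59, 79 and 36 reads in cortisol-treated libraries against 41 and 39 in the 2 controls with a peak. The retromer core subunit vps35 had a promoter row at 43.9, 44.8 and 55.6 against 15.98, 25.7 and 47.7 in controls, higher in all 3 pairs with a mean difference of 18.3 points. Its second row is annotated as the promoter of orc6, a neighbour. The intron row of vps29, the third core subunit, lay at 66.2, 56.3 and 67.1 against 57.4, 61.2 and 61.2 in controls.

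The GARP complex, which tethers endosomal vesicles at the Golgi, was represented by vps51, vps53 and vps54. Vps53 had 5 rows, the most of any member. Of these, 3 distal rows were tall, with mean percentiles of 91.3, 91.6 and 90.5 in cortisol-treated libraries and 90.8, 90.1 and 91.0 in controls. Another, 36295 bp upstream, was lower in the cortisol-treated library in all 3 pairs, at 72.9, 83.8 and 78.6 against 85.1, 86.4 and 83.4 in controls, though the groups overlapped. The vps53 promoter was much lower, at 38.8, 41.0 and 47.0 against 46.3, 36.5 and 43.0 in controls.

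The highest-scored vps row was the promoter of vps45, which guides fusion at endosomes, and it was flat in percentile. It lay at 97.3, 98.7 and 97.2 in cortisol-treated libraries and at 97.1, 98.0 and 98.2 in controls, a difference of -0.02 points. Of the ESCRT subunits under this stem, vps25 had an intergenic row at 79.4, 81.6 and 72.1 against 74.5, 70.03 and 76.9 in controls. Vps13a, a protein that moves lipid between membranes, had 3 rows that overlapped, with differences of -1.96, 2.91 and 8.68 points. Vps72 shares the stem by its yeast name but belongs to a chromatin remodelling complex that exchanges a histone variant. Its intergenic row lay at 49.4, 49.5 and 40.7 against 43.2, 40.5 and 22.6 in controls.

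The sorting nexins, which bind endosomal lipids and bend or sort membrane, had a smaller median difference than the Rab, vps and chmp families, at a higher level. Their 19 rows at 15 genes had a median of the mean percentiles of 66.5 in cortisol-treated libraries and 66.4 in controls. In controls that median was 54.0 for the Rab, 46.7 for the vps and 50.5 for the chmp rows. The median difference of the snx rows was 0.50 points, and by centred height 0.03 (log2), against 0.18 for the list. The mean was higher at 10 (52.6%, against 79.0% of the list) and lower at 9. No row was apart upwards in percentile, against 9.54% of the list, and 2 were apart downwards, against 0.775%. Neither of the 2 was apart by centred height, where 0.371% of the list's rows with a peak in all 6 libraries lay below, or on percentiles within each library's own list, where 0.0419% of the list did. Without replicate 1, 4 snx rows (21.1%) were apart upwards in percentile and 3 downwards, against 29.5% and 5.46% of the list. A promoter row 864 bp upstream of snx30 (chromosome 10, 4962302 to 4962664) lay at 73.4, 61.9 and 64.5 in cortisol-treated libraries and at 77.0, 76.5 and 76.9 in controls. The 3 controls coincided and each cortisol-treated library lay below them, replicate 2 the furthest. A row 3029 bp upstream of snx18b (chromosome 10, 9255914 to 9256540) lay at 64.5, 57.7 and 61.9 against 66.4, 65.2 and 66.4 in controls.

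Both snx rows were nevertheless in the authors' list of peaks larger in cortisol-treated fish. Over its library's background, the snx18b summit stood 19.9, 21.7 and 40.3 fold in cortisol-treated libraries and 9.91, 9.06 and 33.1 fold in controls. For snx30 the folds were 25.5, 23.8 and 42.8 against 12.99, 11.7 and 44.3. On that scale neither row was lower in the group mean, so the direction at these rows depended on what a peak was measured against.

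The remaining snx rows overlapped between the groups. The highest-scored, the promoter row of snx25 (chromosome 14, 3937265 to 3937797), lay at 97.8, 98.3 and 98.3 in cortisol-treated libraries and 95.8, 98.2 and 97.9 in controls. The promoters of snx27b, a partner of the retromer, of snx3, which recruits the retromer, and of snx11 had differences of -0.51, 1.5 and 8.23 points, all with overlap. The intron row of snx9b, a nexin of endocytosis, had the largest difference of the family, 20.9 points, at 30.8, 25.9 and 37.8 in cortisol-treated libraries against 0, 4.48 and 27.2 in controls. The groups of this row overlapped.

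The chmp genes encode the ESCRT-III proteins, whose filaments pinch membranes and close the autophagosome. Their 11 rows at 9 genes all had peaks in all 6 libraries, and at 10 the cortisol-treated mean was higher, against 79.0% of the list. None was apart in percentile, against 9.54% of the list upwards and 0.775% downwards. Without replicate 1, 4 rows (36.4%) were apart upwards, against 29.5% of the list. The family's median difference was 7.27 points. The largest was at the promoter of chmp7, which seals the nuclear envelope, at 32.6, 43.4 and 45.5 in cortisol-treated libraries against 5.45, 22.4 and 43.7 in controls. It was higher in all 3 pairs, by little in the third. The highest-scored row, the promoter of chmp2bb, lay at 75.9, 80.6 and 75.9 against 65.8, 82.7 and 80.0 in controls. The promoters of chmp5b and chmp4ba had differences of 0.51 and 2.35 points, and the 3 rows of chmp3 had 7.27, 9.19 and 4.76 points.

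**Figure D4:**
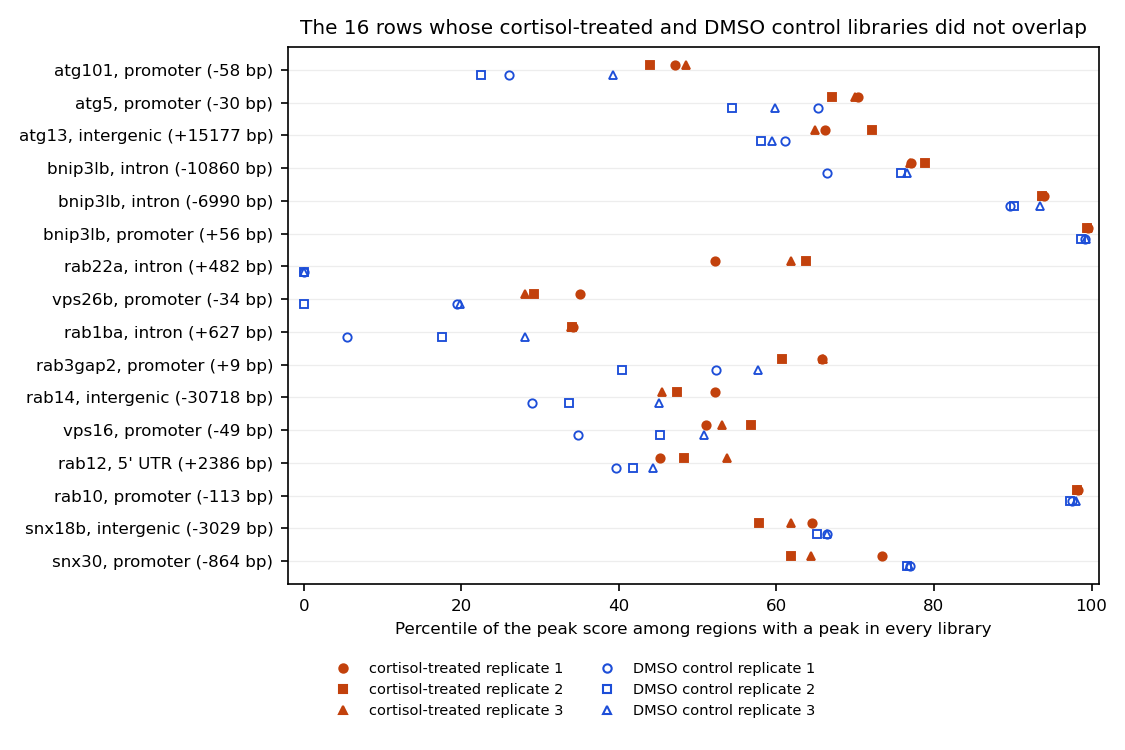
Percentiles in the 3 cortisol-treated (filled) and 3 DMSO-control libraries (open) at the 16 member rows whose groups did not overlap, 14 upwards and the 2 snx rows downwards at the bottom, with the replicate given by the shape. Gaps between the groups are narrow at rab10, bnip3lb and snx18b and wide at rab22a, where the 3 controls at 0 have no listed peak.

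From a list of 130 other membrane traffic genes, such as SNARE proteins, adaptors and Rab regulators, 61 had rows, 98 in all. The cortisol-treated libraries all lay above the 3 controls at 15 rows (15.3%) and below them at 1, against 9.54% and 0.775% of all rows in the list, with a median difference of 4.70 points. Without replicate 1 the rows above numbered 39 (39.8%, against 29.5%) and the median difference was 4.31 points. The row below was the promoter of ist1, an ESCRT-III protein, at 61.2, 64.5 and 52.4 in cortisol-treated libraries against 70.7, 64.7 and 65.3 in controls. Among those above were the promoters of nsfb, the ATPase that takes SNARE pairs apart, at 72.7, 74.7 and 73.7 against 64.3, 68.6 and 70.6 in controls, and of tbc1d25, a Rab inactivator that acts on autophagosomes, at 89.0, 86.3 and 88.4 against 83.4, 84.1 and 81.1 in controls.

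By position, 16 of 34 autophagy rows (47.1%) and 63 of 110 traffic rows (57.3%) were promoter rows, against 47.1% of the list. Intron rows made up 20.6% of autophagy, 8.18% of traffic and 11.6% of the list, and intergenic rows 26.5%, 28.2% and 35.4%. A promoter row was found at 15 of the 22 autophagy and 61 of the 79 traffic genes. Among autophagy rows the promoters were the lower peaks, with a median of the mean percentiles of 54.6 in cortisol-treated libraries and 42.1 in controls. The intron rows stood at 89.0 and 89.3, but there were only 7 of them, 5 assigned to bnip3 genes. The tallest autophagy peak was itself a promoter, that of bnip3lb. In the list as a whole the order was the reverse, with promoters at 66.3 in cortisol-treated libraries and 62.9 in controls and introns at 60.2 and 54.7. In percentile points the autophagy promoters had the larger difference, 7.93 in the median, against 2.38 for the intron rows and 0.79 for the intergenic rows. By centred height the 3 classes were close, with median log2 differences of 0.27, 0.27 and 0.23.

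The authors' score followed how tall a peak was. Across the 136 member rows with a peak everywhere, it rose with mean log2 height (Spearman's rho 0.84) more closely than with the difference in height (rho 0.51). With the percentile difference its rho was -0.19. All points come from the same 6 libraries, and the correlations are descriptions across rows. The median score was 35.2 for autophagy, 23.22 for traffic and 25.7 for the list, and scores of at least 50 were reached by 10 autophagy rows (29.4%) and 11 traffic rows (10.0%), against 17.1% of the list.

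Measured over background, the picture was shared by most of the 13835 reference regions, a subset of the 153054 merged regions. The background is the single level against which a library's peaks were called, not a signal measured outside peaks. The folds therefore serve only to compare libraries. The summit height divided by the library's own background was highest in cortisol-treated replicate 3. Over the 13835 regions its median was 14.1, 18.5 and 30.7 fold for cortisol-treated replicates, against 7.16, 6.96 and 22.8 fold for DMSO-control replicates. The cortisol-treated mean was higher at 13366 of the 13835 regions, by a median log2 of 0.97. At the members it was higher at all 33 autophagy and all 103 traffic rows with a peak everywhere, by a median log2 of 1.21 and 1.1, against 1.12 for all rows of the list. All 3 cortisol-treated libraries were above all 3 controls on this scale at 1 member row, the intergenic row of vps72, beside 1.32% of the list's rows and 1.94% of the regions. DMSO-control replicate 3 stood above cortisol-treated replicate 1 at 134 of the 136 rows. The part of this shared difference in the authors' scores of the members was not tested.

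**Figure D5:**
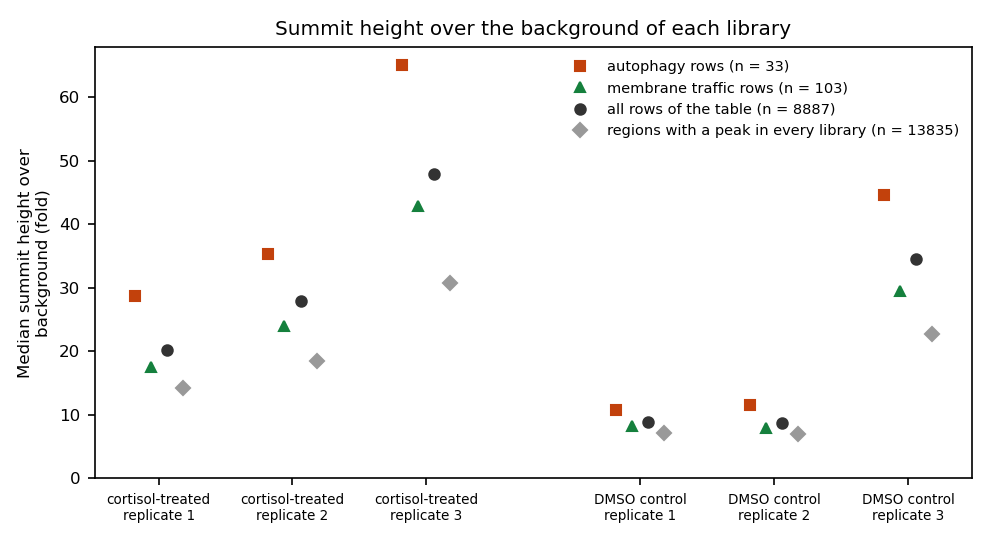
Median summit height over the library's recovered background (fold, axis from 0) in cortisol-treated replicates (left) and DMSO-control replicates (right) for autophagy rows, traffic rows, all rows of the list and all regions with a peak in every library. All 4 sets follow the libraries together, with the regions at 14.1, 18.5 and 30.7 fold in treated libraries and 7.16, 6.96 and 22.8 in controls.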

How the data were processed

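ATAC-seq of adult zebrafish blood was analysed in 3 cortisol-treated and 3 DMSO-control libraries, grouped by title. The authors trimmed the reads (Trimmomatic 0.32), aligned them to GRCz10 (Bowtie 1.0.0), called peaks per library and per pooled group (MACS2 2.1.1.20160309) and annotated differential regions (HOMER 4.8). The deposited peak lists give a MACS2 score, 10 times the -log10 q at the summit as a whole number with no scaling across libraries. The annotated list holds the authors' bdgdiff score, the log10 of a likelihood ratio of pooled treated over pooled control reads, which was used only to rank rows and to describe how they were chosen.

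For each row the highest score of any peak overlapping it by at least 1 bp was taken per library and turned into a percentile among 13835 of 153054 merged regions, those with a peak in every library. Each list was called against one background level, which was recovered together with the summit heights from the spacing of the scores. On 6 lists simulated with known answers the largest error of the background was 0.136%. The simulated scores followed the same score formula as the recovery, so this checks the fit and not whether the formula holds for the deposited lists. The backgrounds of the 3 treated libraries summed to 14.26 against 14.26 for the pooled treated list, and those of the controls to 21.52 against 21.54. The counts without both libraries of replicate 1 were added after seeing the data.

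Rows were named by a rule: all autophagy genes, the genes of the 4 highest scores of each traffic family, genes with 3 or more rows, rows whose groups did not overlap, and the lowest-scored members. Some further traffic genes, listed in the Results, were picked after their values had been seen. The members, gene lists and alternatives were chosen with earlier results of these data known. No group difference was tested, since the rows were selected on the same contrast. Same-numbered libraries share an age in the labels, and the numbers were read as pairs. Their centred log2 heights deviated together from the group means, with correlations across regions of 0.65, 0.19 and 0.64. Libraries of unlike number gave -0.63 to 0.16. Deviations from a group mean cancel out within the group, so high values for same-numbered libraries push the unlike ones down. The contrast between them is therefore partly built in. The 0.16, of cortisol-treated replicate 1 with DMSO-control replicate 2, was close to the 0.19, so replicate 2 was less clearly a pair. The alternatives were other reference sets, overlap limits, row subsets, the height scale, the pairing and the omission of each library. Height over background was added after seeing the data. A motif search and genome sequence were not used here. Of the deposited lists, that of regions larger in controls was not analysed here. Gene symbols of neighbouring transcripts came from RefSeq. The scripts ran in Python 3.11.15 with pandas 2.3.3, scipy 1.17.1, matplotlib 3.10.9 and numpy 2.4.6.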

Additional observations from a re-analysis of the deposited data

How the results depend on the processing

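The median percentile differences of 2.55 (autophagy) and 3.25 (traffic) turned to -0.12 and -1.61 when percentiles were taken among all peaks of each library's own list, where 1 and 2 rows were apart upwards in place of 6 and 8, against 2.18% of the list. The cause was not tested. With 1 row per gene the medians were 0.60 and 3.23 (2.64 for the list). There 3 and 5 rows were apart upwards, against 8.66% of the list. With promoter rows only the medians were 7.93 and 1.73 (2.87) with 3 and 4 rows apart upwards, against 7.79%. With authors' scores of at least 50 they were 0.65 and 0.58 (1.32) with 2 and 1 apart upwards, against 12.7%. These sets hold fewer rows. The share of autophagy rows at promoters was 20.0% at scores of at least 50 against 47.1%. On the centred height scale the medians were 0.26 over 33 autophagy rows and 0.15 over 103 traffic rows (log2). That scale is another unit, of which only the sign was compared. There 6 and 5 rows were apart upwards, against 10.1% of the list's rows with a peak in all 6 libraries. With complete pairs the replicate block cannot change the medians of 2.55 and 3.25. The cortisol-treated library was above its control in every pair at 15 and 37 rows, against 32.4% of the list.

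Leaving out 1 library gave medians between 0.69 (without DMSO-control replicate 1) and 4.16 (without cortisol-treated replicate 1) for autophagy. For traffic they lay between 1.65 and 5.77 without the same libraries, and came to 1.89 without cortisol-treated replicate 2, 1.95 without cortisol-treated replicate 3 and 5.39 without DMSO-control replicate 3. The rows apart upwards numbered 7 to 15 and 10 to 33, against 12.6% to 34.3% of the list. They were more than with all libraries, since separation then comes more easily. Without both libraries of replicate 1, chosen after seeing the data, the medians were 1.06 and 3.93 (2.65 for the list). Then 12 and 32 rows were apart upwards, against 29.5% of the list. In all, 39 of the alternatives stayed within the spread between libraries, the binomial interval of a share, 1.5 times the count or, for height, the same sign, 21 moved beyond it and 2 turned the sign. The 39 include the replicate block medians, which could not change, and the median heights, where only the sign was compared. They also include the autophagy median of 0.60 with 1 row per gene, against 2.55, since the spread between libraries was 3.24 points. With 3 libraries a group, unknown read counts and rows chosen on the same contrast, these values describe the libraries only.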
